A study of Mus musculus with 3 samples.

Results

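The genes described here are 9 genes of type I interferon and cytokine signaling, both chains of the type I interferon receptor (Ifnar1 and Ifnar2), the signal transducers Stat2 and Stat3, and the interferon regulatory factors Irf1, Irf2, Irf3, Irf7 and Irf9. They were chosen by name among the 24421 genes of the deposited read counts, with earlier results of these data known, as were the gene lists below. Counts of called genes set beside shares of all genes are therefore a description only. Of these genes, 9 of 9 averaged 10 reads or more across the 3 RNA-Seq libraries, as 16670 genes did. The libraries were made from undifferentiated female EL16.7 mouse ES cells of the strain background F2:129S1/CastEiJx 129S1. The control library is labelled wild type and its cells received a scramble shRNA lentivirus, and the KD-1 and KD-2 libraries are labelled NUP153 knockdown, each with its own NUP153 shRNA. All 3 cultures had LIF, grew on γ-irradiated mouse embryonic fibroblasts (MEFs) from Tg(DR4)1Jae/J mice, and were selected with 2 μg/ml puromycin for 2 days, and whether feeders were removed before the total RNA was taken is not given in the sources used here. The question was which genes respond when NUP153, a protein of the nuclear pore basket, is depleted. There was 1 library per condition, so no comparison of single libraries has a p-value.

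Type I interferons bind IFNAR1 and IFNAR2, and the kinases TYK2 and JAK1 on these chains phosphorylate STAT proteins. STAT2 and IRF9 act in the complex ISGF3, which binds the interferon-stimulated response element (ISRE) at antiviral genes, while STAT dimers bind the GAS element. IRF3 and IRF7 are phosphorylated downstream of sensors of foreign nucleic acid and switch on interferon genes, and IRF1 and IRF2 are an activator and a repressor that share binding sites. STAT3 acts downstream of LIF and its receptor chain gp130, and in mouse ES cells this signal maintains self-renewal. ES cells are known for a weak interferon response, and fibroblasts for a strong one.

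Promoter sequence bears on these genes because Irf1, Irf7, Irf9 and Stat2 are themselves known interferon-inducible genes. RefSeq promoters (GRCm38.p6) were matched for 9 of 9 genes, and the 250 bases before each RefSeq start were searched on both strands for an ISRE-like run, GAAANNGAAA, and a GAS-like run, TTCNNNGAA. Of 32851 mouse promoter windows of the same length, 2.98% held the ISRE-like run and 7.02% held the GAS-like run. The ISRE-like run was present in 2 of the 9 genes, Stat2 and Irf2, and the GAS-like run in 3, Irf1, Irf2 and Ifnar2. Stat2 is shown because it is the only gene that both held the ISRE-like run and was lower in KD-1, and its window is chr10:128270248-128270497 on the plus strand. Irf1, at chr11:53769764-53770013 on the plus strand, and Ifnar2, at chr16:91372533-91372782 on the plus strand, are shown as the GAS-like matches. Capitals mark the matched run in each sequence, given 5′ to 3′ up to the base before the start.
Stat2: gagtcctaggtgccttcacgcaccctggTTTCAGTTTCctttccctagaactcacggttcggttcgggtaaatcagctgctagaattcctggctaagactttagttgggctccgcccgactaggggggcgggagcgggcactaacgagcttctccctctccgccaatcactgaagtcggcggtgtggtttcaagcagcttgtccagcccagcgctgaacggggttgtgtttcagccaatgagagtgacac
Irf1: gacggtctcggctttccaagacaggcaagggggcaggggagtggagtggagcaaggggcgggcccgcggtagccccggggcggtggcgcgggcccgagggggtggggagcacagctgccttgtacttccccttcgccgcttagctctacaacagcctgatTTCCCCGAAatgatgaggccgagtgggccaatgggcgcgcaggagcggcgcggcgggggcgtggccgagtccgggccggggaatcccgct
Ifnar2: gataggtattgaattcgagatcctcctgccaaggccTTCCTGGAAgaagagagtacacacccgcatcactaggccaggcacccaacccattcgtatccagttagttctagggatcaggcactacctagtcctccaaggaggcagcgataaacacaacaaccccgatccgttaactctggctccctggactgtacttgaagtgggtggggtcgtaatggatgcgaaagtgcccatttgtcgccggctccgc
The Stat2 run lies 222 to 213 bases before the start and reads as the reverse complement of the ISRE-like run, the Irf1 run lies 90 to 82 bases before the start, and the Ifnar2 run lies 214 to 206 bases before it. The windows of Irf3, Irf7, Irf9, Stat3 and Ifnar1 did not hold these letters. Irf1 had another RefSeq start, whose window at chr11:53770223-53770472 held neither run. A gene was counted where any of its windows held the run, while the shares of all promoters are per window. A match is a run of letters, not a measured binding site.

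The libraries held between 69839336 and 85258834 reads on genes. Nup153, the gene targeted by the shRNAs, had 27870 control reads, 16451 KD-1 reads and 11126 KD-2 reads, and its log2 fold was -0.99 for KD-1 and -1.43 for KD-2 against control. Folds throughout are ratios of upper-quartile scaled reads with a pseudocount of 0.5 reads, and a gene was called lower or higher where the fold was above 1.5. The bracketed 95% intervals are exact and cover the counting of reads only, not the spread between cultures. The ES cell label held, since Pou5f1 had 35405 reads in control, against 45092 for KD-1 and 32962 for KD-2, and Nanog had 44622, 61737 and 39339. The libraries also held reads of fibroblast marker genes, and Col3a1, a fibrillar collagen of fibroblasts, had 54628 control reads, 25523 KD-1 reads and 114064 KD-2 reads. The summed scaled reads of 20 fibroblast markers were 190913 in control, against 112305 for KD-1 and 353838 for KD-2, a log2 of the sums of -0.77 for KD-1 and 0.89 for KD-2 against control. In such RNA, fewer cells of a type and less RNA per cell cannot be told apart.

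Per length of exon, the 9 genes spanned a wide range of levels in the control library. Levels were computed as reads normalised to exon length and to the reads on genes of each library (RPKM). Ifnar1 was the highest at 16.8 RPKM, followed by Irf1 at 13.9, Stat3 at 12.6, Irf3 at 7.17, Irf9 at 5.11, Ifnar2 at 3.74, Stat2 at 2.14, Irf7 at 0.543 and Irf2 at 0.271. Neighbours in this order did not overlap in their counting intervals in control. The exons counted set part of it, and with the exons of all annotated transcripts Ifnar1 had 11.1 RPKM against 11.7 for Irf1, and Irf9 had 2.94 against 3.57 for Ifnar2.

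The order differed in KD-1 at 2 places of the scale. There, Irf7 was the lowest of the 9 genes at 0.206 RPKM (0.148 to 0.278), below Irf2 at 0.380 (0.302 to 0.473), and Irf9 at 3.08 (2.87 to 3.30) was below Ifnar2 at 3.56 (3.34 to 3.79). With the exons of all transcripts Irf7 and Irf2 were level in KD-1, at 0.130 and 0.128 RPKM. In KD-2, Irf1 at 21.8 RPKM (21.2 to 22.4) and Ifnar1 at 21.4 (20.8 to 21.9) had overlapping intervals, as had Ifnar2 at 6.18 (5.86 to 6.52) and Irf9 at 6.01 (5.69 to 6.35). Irf2 and Irf7 had means of 63.3 and 79.7 reads, so their values are the least precise, and the other 7 genes had means of at least 629 reads.

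**Figure D1:**
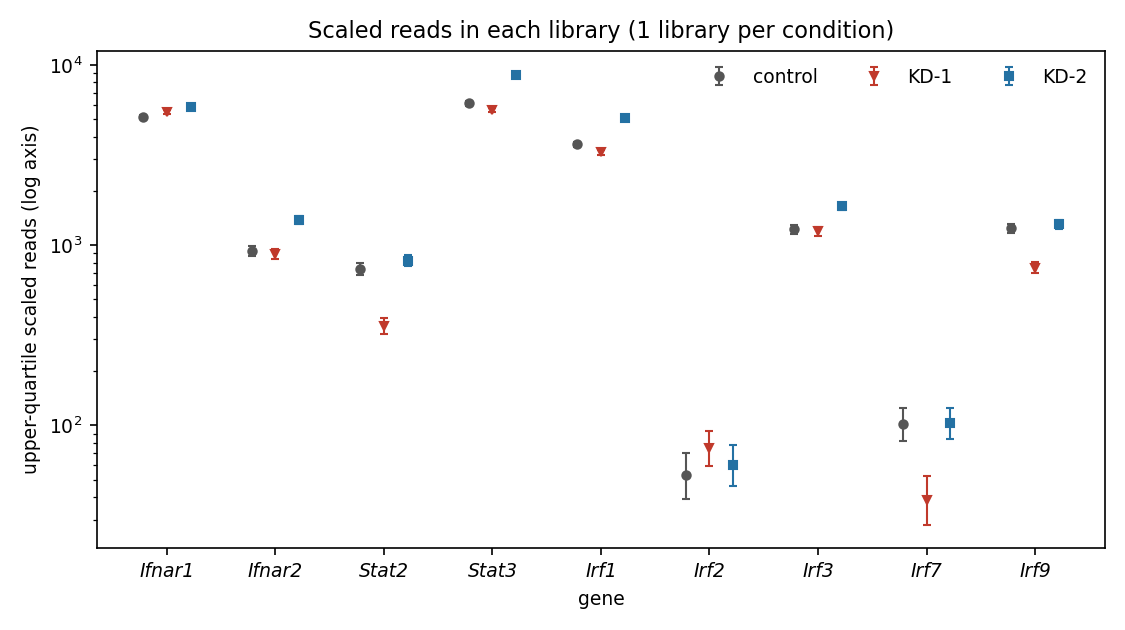
Upper-quartile scaled reads (log axis) of the 9 genes in the control (circles), KD-1 (triangles) and KD-2 (squares) libraries, with bars for the exact 95% interval of read counting, hidden by the symbol where narrow. All but Ifnar1 and Irf2 sit lowest in KD-1, and all but Irf2 sit highest in KD-2.

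In KD-1, Stat2 and Irf9, which encode subunits of ISGF3, and Irf7 were lower than in control, and the receptor chains, Stat3, Irf1, Irf2 and Irf3 stayed within the 1.5-fold limit. In KD-2 none of the 9 genes was past that limit in either direction with upper-quartile scaling. Against control, 3 of the 9 genes were called lower in KD-1, beside 5.62% of all 16670 genes, and 0 were called higher, beside 8.63% of all genes. In KD-2, 0 were called lower, beside 10.2% of all genes, and 0 were called higher, beside 17.1% of all genes. The median log2 fold of the 9 genes was -0.13 for KD-1 and 0.19 for KD-2, and the median of all genes was 0.02 and -0.02. Both comparisons share the control library, so their values are given side by side only.

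Among the receptor chains, Ifnar1 (chr16:91485238-91507441, plus strand, GRCm38 as for all genes here) had 4751 reads in control, against 5952 for KD-1 and 5838 for KD-2. After scaling its libraries differed little, with a log2 fold of 0.10 [0.04, 0.15] for KD-1 and 0.19 [0.13, 0.25] for KD-2. Ifnar2 (chr16:91372783-91405589, plus strand), which encodes the chain with the higher affinity for interferon, had 859 control reads, 964 KD-1 reads and 1371 KD-2 reads. Its log2 fold was -0.06 [-0.20, 0.07] for KD-1 and 0.57 [0.44, 0.69] for KD-2. The KD-2 value lay just under the limit of 0.58 and was the largest of the 9 genes in that library. It passed the limit under 3 other scalings, with log2 folds of 0.61, 0.60 and 0.73 after trimmed mean (TMM), DESeq2 and total-read scaling.

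Of the STAT genes, Stat2 (chr10:128270559-128292849, plus strand) had 682 reads in control, against 388 for KD-1 and 817 for KD-2. It was 2.06-fold lower in KD-1 than in control, a log2 fold of -1.04 [-1.23, -0.86], and its log2 fold in KD-2 was 0.15 [0.01, 0.30]. The KD-1 library was the lowest of the 3 and the KD-2 library the highest.

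Stat3 (chr11:100885098-100939540, minus strand), the transducer of the LIF signal, had the most reads of the 9 genes, 5658 in control, against 6079 for KD-1 and 8768 for KD-2. Its log2 fold was -0.13 [-0.18, -0.07] for KD-1 and 0.52 [0.48, 0.57] for KD-2, within the 1.5-fold limit in both, though with total-read scaling the KD-2 value was 0.68 and past it. Of its exon bases, 0.756% overlap Stat5a on the opposite strand. Whether strand was used in counting is not given in the sources used here. Stat5a itself had log2 folds of -0.15 for KD-1 and 0.85 for KD-2.

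Of the interferon regulatory factors, Irf9 (chr14:55603571-55610030, plus strand), the DNA-binding subunit of ISGF3, had 1147 reads in control, against 814 for KD-1 and 1302 for KD-2. It was 1.65-fold lower in KD-1, a log2 fold of -0.72 [-0.85, -0.59], and had a log2 fold of 0.08 [-0.04, 0.19] in KD-2. Irf9 was the called gene nearest to the 1.5-fold limit in KD-1, which its counting interval just excludes. On the same strand, 2.28% of its exon bases are shared with Rnf31, whose log2 fold was -0.02 for KD-1 and 0.02 for KD-2.

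Irf7 (chr7:141262706-141266481, minus strand), the inducible activator of interferon genes, had few reads, 94 in control, against 42 for KD-1 and 103 for KD-2. Its log2 fold of -1.38 [-1.95, -0.85] in KD-1 was the lowest of the 9 genes, a 2.60-fold lower value with a wide counting interval. In KD-2 its log2 fold was 0.02 [-0.39, 0.44], and the reads of the control and KD-2 libraries were nearly equal. The opposite-strand gene Phrf1, which overlaps 1.19% of its exon bases, had log2 folds of 0.14 for KD-1 and -0.08 for KD-2.

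Irf3 (chr7:44997648-45002848, plus strand), which is present before any stimulus and is activated by phosphorylation, had 1135 control reads, 1296 KD-1 reads and 1636 KD-2 reads. Its log2 fold was -0.04 [-0.15, 0.08] for KD-1 and 0.42 [0.31, 0.53] for KD-2. Bcl2l12, on the opposite strand over 2.56% of its exon bases, had log2 folds of 0.28 and 0.08. Irf1 (chr11:53770014-53778374, plus strand), which is induced by type II interferon, had 3359 reads in control, against 3544 for KD-1 and 5079 for KD-2. Its log2 fold was -0.15 [-0.22, -0.08] for KD-1 and 0.49 [0.43, 0.55] for KD-2. Neither gene was past the limit, though with total-read scaling Irf1 was, at 0.65 in KD-2, and in both the KD-2 library was above the other two.

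Irf2 (chr8:46739732-46847458, plus strand), the repressor of the family, had the fewest reads in control, 49, with 81 for KD-1 and 60 for KD-2. Its log2 fold was 0.49 [-0.03, 1.04] for KD-1 and 0.18 [-0.38, 0.76] for KD-2, and both counting intervals include no difference. It was the only one of the 9 genes with more scaled reads for KD-1 than for KD-2.

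**Figure D2:**
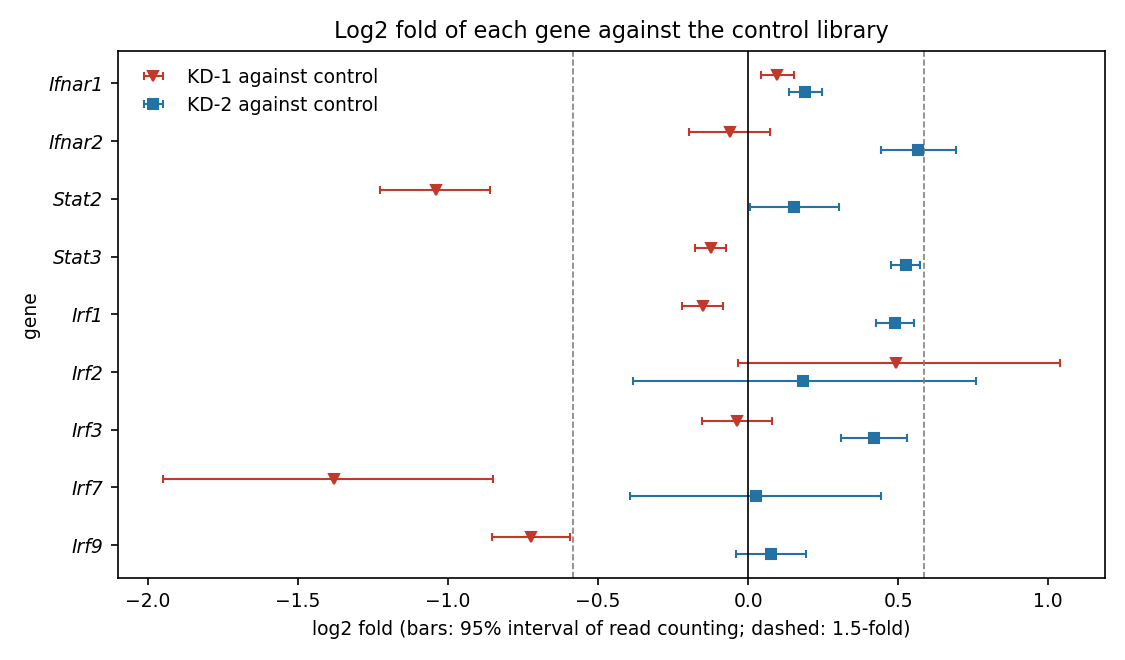
Log2 fold of each gene in KD-1 (triangles) and KD-2 (squares) against control, with bars for the 95% interval of read counting and dashed lines at 1.5-fold. Irf7 at -1.38, Stat2 at -1.04 and Irf9 at -0.72 lie beyond the line in KD-1, and Ifnar2 at 0.57 lies nearest to it in KD-2.

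Set directly against each other, the knockdown libraries differed in more of these genes than either did from control. In KD-1 against KD-2, 6 of the 9 genes were called lower, Irf7, Stat2, Irf9, Stat3, Irf1 and Ifnar2, beside 16.1% of all genes. None of the 9 was called higher, beside 13.9% of all genes. Irf7 was 2.65-fold lower in this comparison, Stat2 2.29-fold and Irf9 1.74-fold. Stat3 at 1.57-fold, Irf1 at 1.56-fold and Ifnar2 at 1.55-fold lay just past the limit, and Irf3 at 1.37-fold and Ifnar1 at 1.07-fold lay within it. With a limit of 2-fold, only Irf7 and Stat2 would be called. The median log2 of the 9 genes between the knockdown libraries was -0.64 and that of all genes was 0.12.

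With both knockdown libraries as 1 group against control, 0 of the 9 genes were called by edgeR's quasi-likelihood test at an adjusted p under 0.05, beside 0.0189% of the 21164 genes tested. At an unadjusted p under 0.05 there were also 0 of the 9, against 293 of all genes, and DESeq2's Wald test called 0 of the 9 as well. The unadjusted p of the 9 genes lay between 0.389 for Irf7 and 0.696 for Ifnar1, and the fitted log2 fold was -0.49 for Irf7, -0.30 for Stat2 and -0.25 for Irf9. This test takes its spread from KD-1 and KD-2 alone, with 1 residual degree of freedom, and these libraries carry different shRNAs.

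Among the other genes of the pathway, Il10rb and Usp18 were called lower in KD-1. Beside the list counts that follow, 5.62% of all genes were called lower and 8.63% higher in KD-1. In KD-2 these shares were 10.2% and 17.1%. Of the other STAT genes, in KD-2 Stat5a (log2 0.85) and Stat5b (0.60) were called higher and Stat4 (-0.73) lower. Of 6 other IRF and IRF-binding genes with enough reads, 0 were called in KD-1, and in KD-2 there were 4 called higher. Irf2bpl and Irf2bp2, which encode proteins that bind IRF2, had log2 folds of 1.23 and 0.91 in KD-2, and Irf2bp1 had 0.74.

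Of 8 JAK kinases and other interferon receptor chains, Il10rb, a chain of the type III interferon receptor, was called lower in KD-1 at a log2 fold of -0.66. Ifnlr1, its partner chain, was called higher there at 0.61 from a mean of under 100 reads, and was named after its values were seen. In KD-2 the type II receptor chains Ifngr2 (0.81) and Ifngr1 (0.68) were called higher. The receptor kinases stayed within the limit, and Jak1 had log2 folds of -0.13 and 0.56, and Tyk2 of 0.13 and 0.39, in KD-1 and KD-2. Both were also named after their values were seen.

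The 21 interferon genes in the counts had 22 reads in all in control, against 25 for KD-1 and 19 for KD-2, and 11 of them had no read in any library. None had enough reads for a fold, so a difference in interferon transcripts was not detectable at this depth. Of 10 kinases and adaptors that activate IRF3 and IRF7, 0 were called in KD-1. In KD-2 there were 3 called higher, beside 17.1% of all genes, among them Tmem173 (0.75), which encodes STING, and Myd88 (0.70).

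Of 17 negative regulators, Usp18 was the only gene called in KD-1. It encodes an enzyme that removes ISG15 and shuts off IFNAR2, and it had 333 control reads, 22 KD-1 reads and 297 KD-2 reads, a log2 fold of -4.12 [-4.84, -3.53] for KD-1 and -0.27 [-0.50, -0.04] for KD-2. In KD-2, Ptpn6 (-0.85) and Socs2 (-0.64) were called lower, beside 10.2% of all genes. Called higher in KD-2 were 2 genes, among them Socs5 (0.64), beside 17.1% of all genes.

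Among 16 genes around LIF and STAT3, 1 was called in KD-1, Il6, with a log2 fold of 0.77. In KD-2 there were 4 called higher, among them Junb (2.05), Osmr (0.77) and Gbx2 (0.71), and 1 called lower. Of all genes, 17.1% were called higher in KD-2 and 10.2% lower. The STAT3 targets Klf4 and Socs3, named after their values were seen, had log2 folds of 0.04 and 0.20 in KD-1 and 0.15 and 0.41 in KD-2, within the limit in both.

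**Figure D3:**
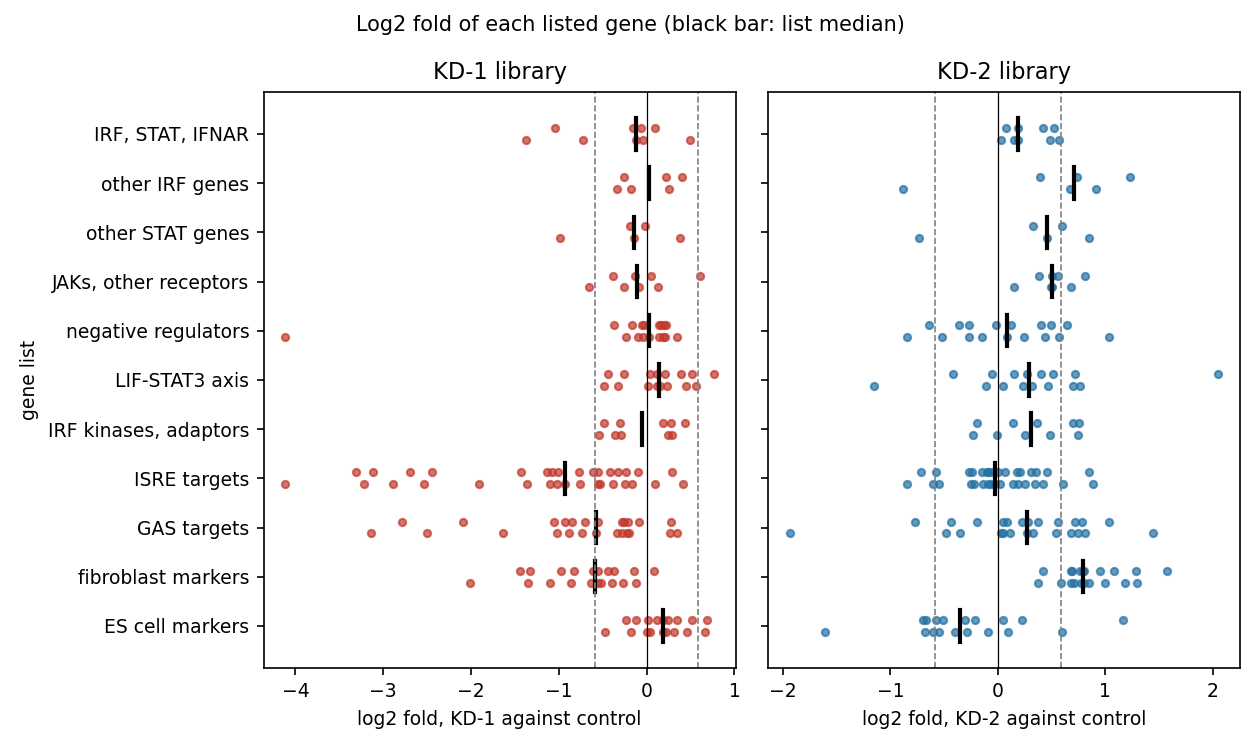
Log2 fold against control of every gene averaging 10 reads or more in 11 gene lists, in KD-1 (left) and KD-2 (right), with a black bar at each list's median and dashed lines at 1.5-fold. The ISRE and GAS target lists have medians of -0.93 and -0.58 in KD-1 and -0.03 and 0.28 in KD-2, and the fibroblast markers have medians of -0.59 and 0.80.

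Many known ISRE target genes were called lower in KD-1, but not all. Of 33 known ISRE target genes, 20 were called lower in KD-1 and 0 higher, and in KD-2 there were 3 called lower (1 with total-read scaling) and 3 higher. Their median log2 fold was -0.93 for KD-1 and -0.03 for KD-2, beside 0.02 and -0.02 for all genes. After Usp18, the lowest were Ifi44, with 671 reads in control, against 79 for KD-1 and 970 for KD-2, Ifit1, with 1260, 158 and 1274, and Isg15, with 701, 94 and 960. Ifit1 encodes a protein that binds viral RNA and Isg15 a ubiquitin-like modifier. Their log2 folds in KD-1 were -3.31, -3.22 and -3.12, below those of Stat2 and Irf9.

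Of 25 known GAS target genes, 12 were called lower in KD-1 and 0 higher, and in KD-2 there were 2 called lower and 7 higher. Of all genes, 5.62% were called lower in KD-1, and 10.2% were called lower and 17.1% higher in KD-2. The median log2 fold was -0.58 for KD-1 and 0.28 for KD-2. The lowest were genes of the interferon-inducible GTPases, Iigp1, with 207 control reads, 27 KD-1 reads and 260 KD-2 reads, Gbp3, with 221, 37 and 290, Gbp7, with 142, 29 and 165, and Igtp, with 158, 43 and 180. Their log2 folds in KD-1 were -3.14, -2.79, -2.50 and -2.09. Of the ISRE targets, 26 had a RefSeq promoter and 8 of these held the ISRE-like run, and of the 12 among them that were called lower in KD-1, 4 held it. Of the GAS targets, 21 had a RefSeq promoter, of which 11 held the ISRE-like run and 6 the GAS-like run, and of the 10 among them that were called lower in KD-1, 6 held the ISRE-like run.

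Some fibroblast markers were called lower in KD-1, and most were called higher in KD-2. In KD-1, 10 of 20 were called lower and 0 higher, with log2 folds from -2.01 (Postn) to 0.08 (Col6a3). In KD-2, 18 of 20 were called higher and 0 lower, with log2 folds from 0.37 (Thy1) to 1.58 (Col5a1). Usp18, Ifi44, Ifit1 and Isg15 lay below the lowest marker in KD-1, while all of the 9 genes but Ifnar1 and Irf2, which lay above it, lay within the range of the markers. In KD-2, Stat2, Irf7, Irf9, Ifnar1 and Irf2 at 0.15, 0.02, 0.08, 0.19 and 0.18 lay below the lowest marker, and Stat3, Irf1, Irf3 and Ifnar2 lay within the range. Of 18 ES cell markers, 0 were called lower and 2 higher in KD-1, and 5 lower and 2 higher in KD-2, with a log2 of their summed reads of 0.13 and -0.44. The 5 lower in KD-2 became 4 with TMM or DESeq2 scaling and 1 with total-read scaling. The 10 leukocyte markers had 358 reads in all in control, against 485 for KD-1 and 453 for KD-2, of which Ptprc, the pan-leukocyte CD45 gene, had 6, 6 and 12. Whether the reads of the fibroblast markers came from feeders or from ES cells was not tested. The part of the feeder cells in the values of the 9 genes was not tested either.

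**Figure D4:**
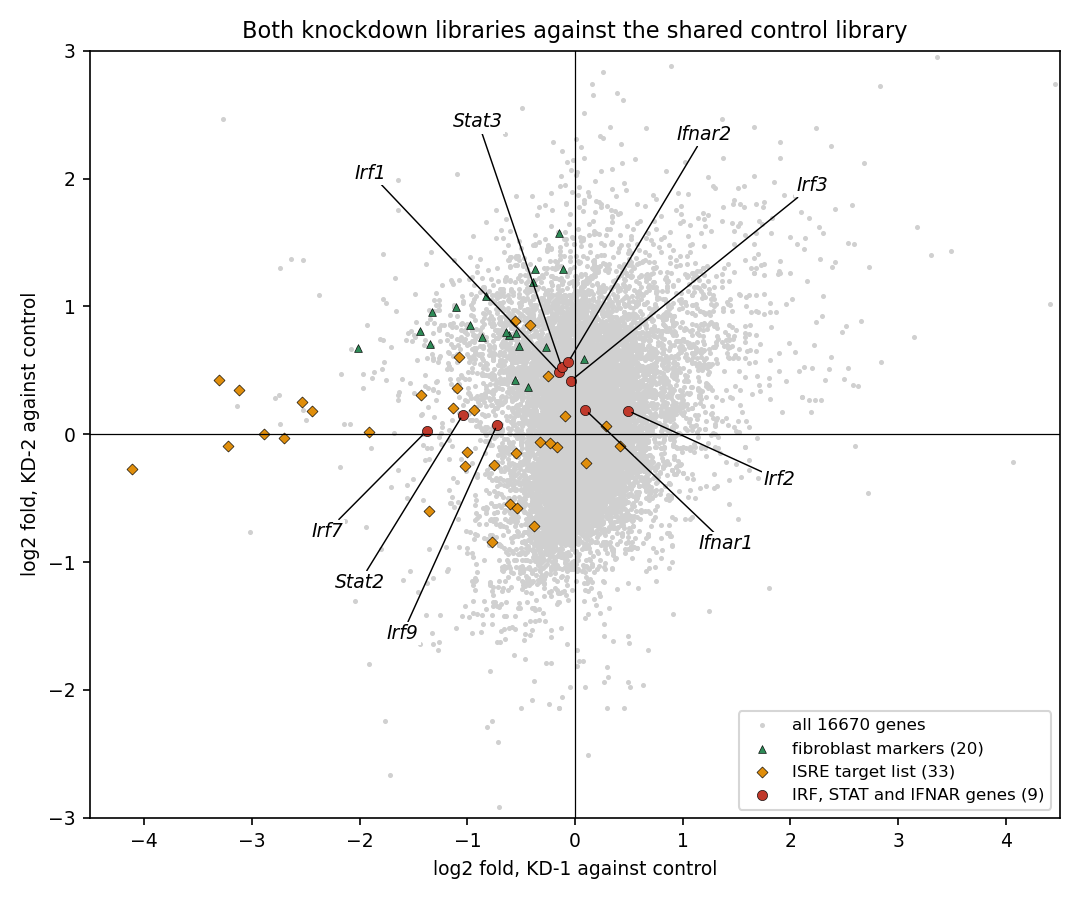
Log2 fold in KD-1 (horizontal) and KD-2 (vertical) against the shared control for 16670 genes (grey, 7 lie outside the axes), 20 fibroblast markers, 33 ISRE target genes and the 9 genes. Stat2, Irf7 and Irf9 lie at the left near 0 in KD-2, Usp18 at -4.12 is the leftmost ISRE target, and 18 of 20 fibroblast markers lie above 1.5-fold in KD-2.

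The genes nearest to the 3 called genes were found by distance over their pair of log2 folds, among 12743 genes averaging 100 reads or more. With 2 folds per gene that share a control library, this is a description only. Nearest to Stat2 was Zfp677, with 118 control reads, 69 KD-1 reads and 142 KD-2 reads, then Dhx58, at log2 folds of -1.13 for KD-1 and 0.20 for KD-2, and Il18rap, at -1.14 and 0.11. Dhx58, which encodes the RNA sensor LGP2, is also one of the ISRE targets. Nearest to Irf9 were Ankra2 (-0.74 and 0.08), Ctf1 (-0.69 and 0.05) and Tvp23b (-0.76 and 0.06). Nearest to Irf7 were Dusp12 (-1.40 and 0.02), AA467197 (-1.41 and -0.09) and Il1rl1 (-1.31 and 0.14), which encodes the receptor of interleukin 33.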

How the data were processed

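RNA-Seq counts of 3 libraries were used. The authors depleted ribosomal RNA, and per the labels and methods trimmed reads with Trim Galore 0.4.1, mapped them with TopHat2 2.1.1 to mm10 (GRCm38), and deposited unnormalized whole-number counts for each gene. HTSeq is named in the submitters' processing notes and another counter in the methods. Reads in no gene made 21.8% (control), 24.1% (KD-1) and 21.5% (KD-2) of the table, ambiguous reads 1.65%, 1.53% and 1.45%, and summary lines were left out of library sizes.

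The 9 genes and the gene lists were chosen with earlier results of these data known. From the counts, upper-quartile scaled folds with a pseudocount of 0.5 reads were computed for the 16670 genes averaging 10 reads or more. A fold above 1.5 was called, and exact 95% Clopper-Pearson intervals cover counting error only. The study's fixed dispersion from spike-ins was not used here. RPKM used protein-coding exons of the GENCODE M21 basic annotation. Both knockdowns were compared to control with edgeR 4.0.16 (TMM, quasi-likelihood test, Benjamini-Hochberg adjusted p under 0.05) over 21164 genes with a read, and with DESeq2 1.42.0. The labels do not say that cultures were repeated. The named genes were the 9 genes, up to 4 genes per list with the largest folds past 1.5-fold and a mean of at least 100 reads, the marker lists, Nup153, and the 3 nearest genes of each gene called in KD-1. Values of a few genes of the lists are not reported here. Alternatives were TMM, DESeq2 and total-read scaling, a pseudocount of 5 reads, a fold above 2, an interval that excludes 1.5-fold, and other read minimums. Scripts were tested on simulated data. Work was done in R 4.3.3 and Python 3.11.15 (matplotlib 3.10.9, numpy 2.4.6, pandas 2.3.3, scipy 1.17.1).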

Additional observations from a re-analysis of the deposited data

How the results depend on the processing

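Genes called higher in KD-2 numbered 0 with upper-quartile scaling, 1 with TMM, 1 with DESeq2 size factors (Ifnar2 in both) and 3 with reads on all genes (Irf1 at 0.65, Stat3 at 0.68 and Ifnar2 at 0.73). That last scaling moved the median log2 fold of all genes by 0.16 in KD-2 and by -0.17 between the knockdowns, where it also added Irf3 (7 called lower), and DESeq2 size factors moved the latter by -0.10. Between the knockdowns, 2 genes were called lower with a fold above 2, and 4 with an interval that excludes 1.5-fold. In KD-1, Stat2 and Irf7 passed a fold above 2, Irf7 fell out at a minimum mean of 100 reads, and the 3 genes were called under the other alternatives run. No gene of the 9 changed sign under any scaling or pseudocount. The ISRE targets called lower in KD-1 ranged from 20 to 23, the GAS targets from 12 to 14 and the fibroblast markers from 10 to 13 over the scalings, a check added after seeing the data. All genes called with both knockdowns numbered 4 in the main test, 2 with upper-quartile scaling, 2 with DESeq2 size factors, 1 with a minimum mean of 10 reads and 2 with the Wald test. No paired analysis was possible because each condition has 1 library, and leaving out a knockdown library leaves no residual degrees of freedom, so that test was not run. Below 100 reads, as for Irf2 and Irf7, counting limits the folds.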
